A study of Mus musculus with 83 samples.

Results

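The cytosolic ribosomal protein genes were followed through brown fat cell differentiation in culture and compared with brown adipose tissue. They were chosen by symbol alone: every symbol in the culture tables that starts with Rpl or Rps and a digit, with Rplp0, Rplp1, Rplp2 and Rpsa, leaving out the S6 kinases and symbols marked as pseudogenes. This took 76 of the 11144 genes. The 76 comprised 41 proteins of the large ribosomal subunit, 28 of the small subunit, the 3 acidic stalk proteins, 3 paralogs (Rpl22l1, Rps27l and Rpl36al) and Rps19bp1. The last encodes a protein that binds Rps19 and is not itself a ribosomal protein. The core set left out Rps19bp1 and the 3 paralogs and held 72 genes.

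The culture libraries came from brown preadipocytes, which give rise to heat-producing fat cells, of C57BL/6J background. The cells were isolated from the interscapular brown fat of newborn mice, carried floxed Pparg alleles (Pparg-flox/flox) and were immortalized with the SV40 large T antigen. No Cre is named for these samples. RNA was taken at day -3 from proliferating cells, at day 0 from confluent cells, at day 2 from immature adipocytes and at day 7 from mature adipocytes. Confluent cells were induced at day 0 with insulin, T3, IBMX, dexamethasone and indomethacin, and later medium kept only insulin and T3. The tissue library was made from the interscapular brown fat of C57BL/6J mice aged 16 weeks, with no floxed allele or treatment named. Each time and the tissue had 1 library, so no difference below has a replicate check or a p-value.

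Ribosomal proteins assemble with ribosomal RNA in the nucleolus into a small subunit, which reads the mRNA, and a large subunit, which joins amino acids. Their mRNAs are among the most abundant of growing cells, and each finished ribosome holds most of the proteins in a single copy. Most vertebrate ribosomal protein mRNAs begin with a C followed by an uninterrupted run of pyrimidines, the 5′ terminal oligopyrimidine (TOP) tract, through which mTOR signalling controls their translation. Mammalian genomes also carry many processed pseudogenes of these genes, near-copies of their mRNAs whose reads can be hard to assign.

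The annotated start sites show this TOP signature in part of the family. RefSeq promoter windows of assembly GRCm38.p6, which is another build than the mm9 of the data, were found for 57 of the 76 members, some with several starts, 68 windows in all. A C at the first annotated base followed by at least 4 further pyrimidines was present in 17.6% of the members' windows, against 2.25% of the windows of all genes in the culture tables and 2.21% of all protein-coding windows. A run of at least 5 pyrimidines that opens with C within 10 bases of the start was present in 54.4%, 31.9% and 31.1% of these windows. The 30-base stretches below, 15 bases before the start and 15 from it on, are those of members to which the results return. Capitals mark the longest such run near the start. The first 6 have a TOP tract at the first annotated base, and the next 6 do not.
Rpl15 (chr14:18270972-18271001, minus strand): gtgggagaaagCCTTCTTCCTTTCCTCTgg
Rpl28 (chr7:4792950-4792979, plus strand): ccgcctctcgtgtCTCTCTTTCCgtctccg
Rpl35 (chr2:39005117-39005146, minus strand): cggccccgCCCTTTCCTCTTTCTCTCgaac
Rpl38 (chr11:114668565-114668594, plus strand): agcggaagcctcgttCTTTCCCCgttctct
Rps10 (chr17:27635230-27635259, minus strand): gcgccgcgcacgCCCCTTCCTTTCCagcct
Rps15a (chr7:118116133-118116162, minus strand): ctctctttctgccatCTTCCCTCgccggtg
Rps26 (chr10:128626492-128626521, minus strand): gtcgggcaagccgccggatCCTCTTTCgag
Rps9 (chr7:3704026-3704055, plus strand): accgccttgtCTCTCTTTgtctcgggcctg
Rps23 (chr13:90923107-90923136, plus strand): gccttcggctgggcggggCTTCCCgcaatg
Rpl39 (chrX:37085208-37085237, minus strand): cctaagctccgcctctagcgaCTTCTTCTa
Rpl22l1 (chr3:28805493-28805522, plus strand): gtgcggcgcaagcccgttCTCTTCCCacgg
Rps19bp1 (chr15:80264292-80264321, minus strand): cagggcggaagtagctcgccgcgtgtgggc

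Of the 57 members 35 have such a run near a start. Rps19bp1 has none, and neither do core genes such as Rpl4, Rpl5, Rpl11, Rps15 and Rplp0. The accuracy of the annotated starts was not checked, so a miss does not show that an mRNA lacks the tract. Rps15a and Rpl28 both have the tract, and their levels differed in opposite directions between day -3 and day 0. Across the whole 300-base window, on either strand, CCGGAAG, a core of ETS factor motifs, was found in 36.8% of member windows and 17.4% of the windows of culture genes. AAGATGG, the core of the YY1 motif, was found in 14.7% and 6.90%, the GC box GGGCGG in 61.8% and 63.7%, and TATAAA in 10.3% and 6.81%. A match is a description of the sequence only. The 12 members with the tract at the first base (Rpl14, Rpl15, Rpl28, Rpl35, Rpl35a, Rpl38, Rplp2, Rps10, Rps15a, Rps18, Rps21 and Rps6) had a median difference of -0.66 between day -3 and day 0 on the log2(FPKM + 1) scale, and the 45 others with a window also had -0.66. From day -3 to day 7 these medians were -0.75 and -0.74.

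Culture values are FPKM, fragments scaled for transcript length and library size, and how deeply these 4 libraries were sequenced is unknown. The adipocyte markers, all 7 of which have values, summed to 63.1, 143.8, 7123 and 7187 FPKM at days -3, 0, 2 and 7. The 4 brown adipocyte markers (Ucp1, Cidea, Cox8b and Elovl3) summed to only 16.3 FPKM at day 7, where Ucp1, which defines brown fat, was at 1.22. Of 6 preadipocyte or fibroblast markers 5 have values, and their sum was lowest at day 7 (722 FPKM) and highest at day 0 (2740 FPKM). Most of that sum is Col1a1 (674 and 2556 FPKM), while Pdgfra was highest at day 2 (31.1 FPKM) and Thy1 at day -3 (9.14 FPKM). The macrophage, endothelial, red blood cell and muscle lists summed to at most 7.08 FPKM in any culture library, from 1 or 2 members each, and no lymphocyte marker has a culture value.

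The ribosomal protein genes covered a wide range of levels, and that range was kept through differentiation. At day -3 the values ran from 2.16 FPKM for Rps12 to 1693 for Rpl8, with a median of 43.3 against 12.2 for all genes. A total of 27 members were at 100 FPKM or more, 43 between 10 and 100 and 6 below 10. Levels of single genes were therefore far from equal. The small subunit proteins had a higher median (90.5 FPKM) than those of the large subunit (30.2 FPKM) at day -3, and likewise at day 7 (72.1 and 19.5 FPKM).

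The 5 highest members held 43.7% of the summed member FPKM at day -3 and 36.7% at day 7. Rpl8, a large subunit protein near the peptidyl transferase centre, was at 1693, 991, 1100.3 and 863 FPKM at days -3, 0, 2 and 7. Rplp1, an acidic stalk protein that helps recruit elongation factors, was at 1598, 1184, 662 and 631 FPKM. Rps9, a small subunit protein that binds early in assembly, was at 1565, 991, 710 and 674 FPKM. All of these were highest in the proliferating culture and lowest at day 7. Rps15, in the head of the small subunit, was at 762, 479, 406 and 440.1 FPKM, and Rpl4, which lines the exit tunnel, was at 737, 502, 517 and 384 FPKM.

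At the other end, Rps12 was at 2.16, 0.775, 1.16 and 0.834 FPKM at days -3, 0, 2 and 7. Rpl17, which lies near the tunnel exit, was at 4.66, 3.07, 3.09 and 2.31 FPKM. Rps29 was at 6.06, 4.602, 3.03 and 1.83 FPKM. These are low values for proteins that every ribosome needs, and Rps12 was below the median of all genes in every culture library. Rps6, the small subunit protein phosphorylated by S6 kinase, was at 6.34, 3.02, 3.31 and 3.87 FPKM, and Rpl9 at 9.17, 8.11, 8.97 and 6.39 FPKM.

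**Figure D1:**
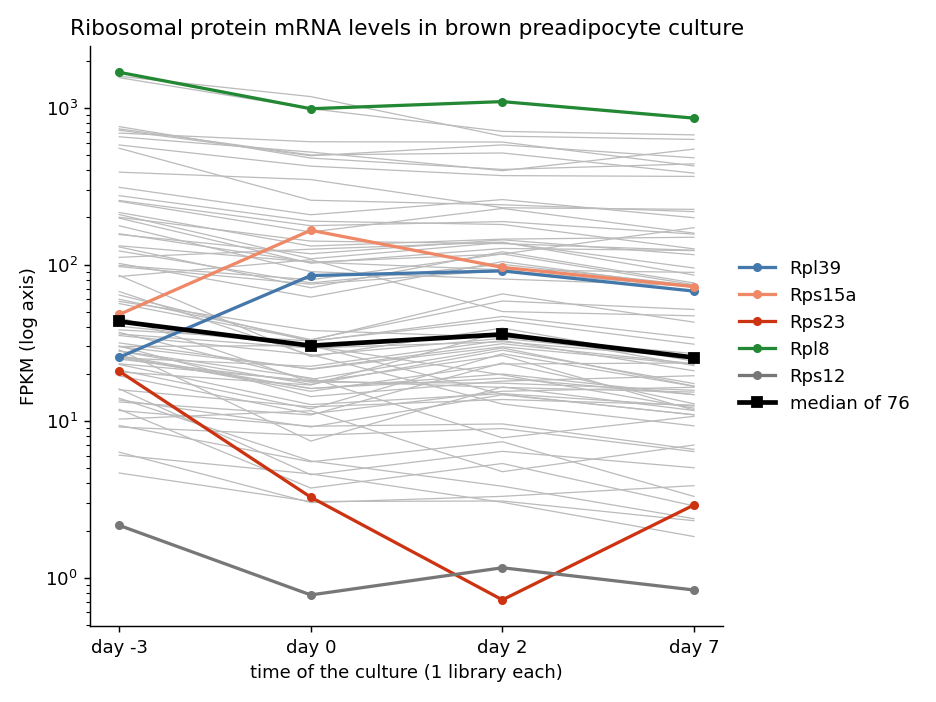
FPKM of the 76 ribosomal protein symbols (log axis) in the 4 culture libraries, 1 line per gene, with their median in black and 5 genes in colour. The lines run roughly parallel from 2.16 FPKM (Rps12) to 1693 (Rpl8) at day -3, while Rps23, Rpl39 and Rps15a cross the others.

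The family as a whole was highest in proliferating cells and lowest in mature adipocytes. In the 4 libraries in order of time the median of the 76 was 43.3, 30.3, 35.8 and 25.5 FPKM. Their share of all summed FPKM was 3.95%, 3.14%, 3.03% and 2.44%, and their median percentile within the library was 82.7, 75.8, 79.9 and 70.5. Of the 76 genes 58 (76.3%) had their highest value at day -3, against 28.4% of all genes, and 46 (60.5%) had their lowest at day 7, against 29.6% of all genes. Another 23 (30.3%) had their lowest value at day 0, against 17.7% of all genes. FPKM are shares of a library, so a smaller share, fewer cells with the mRNA and less mRNA per cell cannot be told apart here, and ribosome number was not measured.

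Rpl19, Rps26 and Rpl15 had the profiles nearest to the family's median over the 4 times. Rps26, a small subunit protein at the mRNA exit, was at 257, 177, 188 and 157 FPKM. Rpl19 was at 26.2, 16.2, 18.8 and 14.8 FPKM, and Rpl15 between 14.8 FPKM at day 7 and 25.4 at day -3. The order of the genes by level was much the same in all culture libraries, with Spearman's rho across the 76 genes between 0.94 and 0.99 for pairs of libraries. This describes genes within libraries made and scaled alike, and genes are not independent replicates.

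Between the proliferating and the confluent culture nearly the whole family was lower. Differences are of log2(FPKM + 1), which understates those of low genes, and a gene is counted as higher or lower when the 2 values were 2-fold apart or more on that scale. All 76 members passed the filter of 1 FPKM in the higher library in each comparison. The median difference from day -3 to day 0 was -0.57, with 70 of 76 members below 0, against a median of 0.06 and 46.4% below 0 (53.6% above 0) over all genes. Past 2-fold, 10 members were lower, or 13.2% of the family, where 5.43% of all genes were, and 2 were higher, where 11.3% of all genes were.

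The largest difference was that of Rps23, a small subunit protein of the decoding centre, which went from 20.8 FPKM at day -3 to 3.27 at day 0 (-2.36 on the log2 scale). Rpl22l1, a paralog of Rpl22, went from 28.6 to 7.46 FPKM (-1.81). Rpl10a, the protein of the mobile L1 stalk where spent tRNA leaves, went from 85.2 to 25.8 FPKM (-1.68). These 3 genes were the lowest of the family at this step, and they differ in role. Rpl28 went from 16.1 to 4.54 FPKM (-1.62) and Rpl36a from 11.9 to 3.74 FPKM (-1.44). The other 5 that were at least 2-fold lower were Rpl12, Rps19bp1, Rpl35, Rpl18 and Rpl10, with differences from -1.33 to -1.02.

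Against this, Rps15a and Rpl39 were higher at confluence. Rps15a, a small subunit protein, went from 48.0 FPKM at day -3 to 165.7 at day 0 (1.77 on the log2 scale). Rpl39, one of the smallest ribosomal proteins, which lines the narrow part of the exit tunnel, was at 25.6 and 85.1 FPKM (1.70). The next in order were far closer to 0. Rps25, at 83.9 and 107.5 FPKM, differed by 0.35, Rps20 by 0.17 and Rpl36 by 0.16.

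The size of the step depends on how libraries are scaled, and its direction for the family does not. When each library was rescaled to the same total FPKM, the median of all genes moved from 0.06 to 0.25 and that of the family from -0.57 to -0.36, so relative to all genes the family's difference was -0.63 as deposited and -0.61 rescaled. Of all genes past 2-fold, 67.6% were higher as deposited and 80.6% when rescaled. The signs of Rpl11, Rpl22, Rpl9, Rplp0 and Rpsa at this step differed between scalings, as their differences lay between -0.18 and 0.02 as deposited.

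From day 0 to day 2, the first days of induced adipogenesis, the median member was slightly higher and the members spread out, while the family's share of all FPKM was slightly lower (3.14% and 3.03%). The median difference was 0.19, with 51 of 76 above 0, where all genes had a median of -0.01, 49.1% above 0 and 50.9% below. Past 2-fold, 4 members were higher (6.18% of all genes were) and 4 were lower (10.7% of all genes were). With 5.26% of members on each side, neither count stood above that of all genes. Rpl5 and Rplp0 were within 0.03 of 0 and changed sign with the scaling.

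Rpl21 and Rpl22l1 were among the higher members. Rpl21 went from 11.97 FPKM at day 0 to 26.9 at day 2 (1.11 on the log2 scale). Rpl22l1 went from 7.46 to 16.5 FPKM (1.05), which was still below its value at day -3. Rpl23, a protein that can bind Mdm2, lay just short of the threshold at 32.8 and 65.0 FPKM (0.96).

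Rps23, Rpl23a, Rpl36 and Rps25 were lower. Rps23 went from 3.27 FPKM at day 0 to 0.721 at day 2 (-1.31), its lowest value, where the additive constant of 1 weighs most. Rpl23a, a docking site for chaperones at the tunnel exit, was at 18.9 and 7.82 FPKM (-1.17). Rpl36 was at 11.6 and 4.75 FPKM (-1.14). Rps25, used in initiation from some viral internal entry sites, was at 107.5 and 50.1 FPKM (-1.09). Rpl38 and Rpl11 lay just short of the threshold at -0.99 each.

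From day 2 to day 7, as adipocytes matured, the family was lower again, with little spread. The median difference was -0.37 and 65 of 76 members were below 0, against 0.02 and 48.6% (51.4% above 0) over all genes. Only 1 member was at least 2-fold lower, where 5.14% of all genes were, and 1 was higher, where 9.62% were. Within 0.5 of the family's median lay 68 of 76 members, against 61 from day -3 to day 0 and 53 from day 0 to day 2. The interquartile range from day 2 to day 7 was -0.51 to -0.11 for the family and -0.34 to 0.44 for all genes. For all genes too it was narrowest at this step, against -0.35 to 0.54 from day -3 to day 0 and -0.47 to 0.35 from day 0 to day 2.

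Rpl12, at the base of the stalk, was the lower one, at 26.3 FPKM at day 2 and 11.8 at day 7 (-1.10). Rps23 was the higher one, at 0.721 and 2.91 FPKM (1.19), both low values. Rpl27a went from 29.4 to 16.7 FPKM (-0.78) and Rps20 from 139.1 to 85.7 FPKM (-0.69). Among the few above 0, Rplp2, a stalk partner of Rplp1, was at 116.8 and 172 FPKM (0.56), and Rpl13a, known also as a regulator of translation outside the ribosome, at 398 and 547 FPKM (0.46). Rpl23a, Rps15 and Rpl10 differed by 0.41, 0.12 and 0.11. Rpl24, Rpl34 and Rpl35a lay within 0.08 of 0 and changed sign with the scaling.

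**Figure D2:**
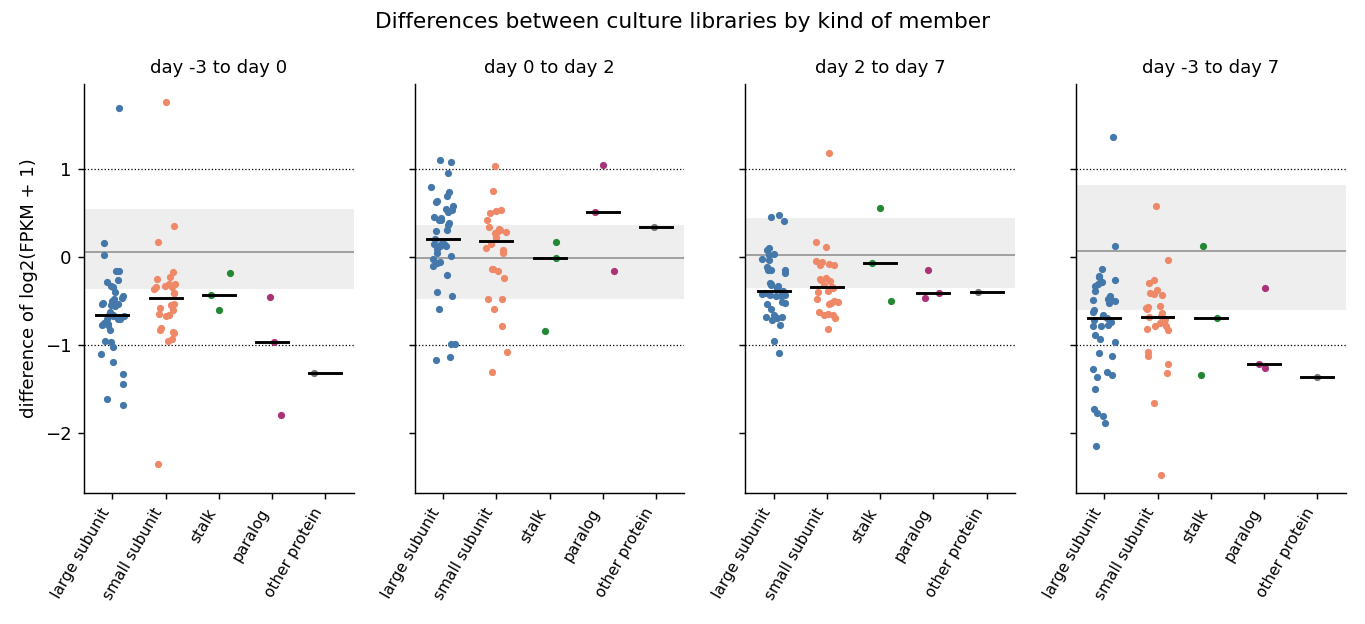
Differences of log2(FPKM + 1) of each member (points) between culture libraries, by kind of member, with the median of each kind as a black bar; the grey line and band are the median and the interquartile range of all genes compared, and dotted lines mark 2-fold. Nearly all points lie below the grey line from day -3 to day 0, from day 2 to day 7 and from day -3 to day 7, and around or above it from day 0 to day 2.

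Over the whole course, from day -3 to day 7, 72 of the 76 members were below 0 and the median difference was -0.70, where all genes had 0.07, with 47.4% below 0 and 52.6% above. That median corresponds to a factor of 0.617 on FPKM + 1. At least 2-fold lower were 22 members, or 28.9%, where 14.7% of all genes were, and 1 was higher, where 20.3% of all genes were. The large and small subunits had nearly equal medians, -0.70 and -0.68. Rescaled to equal totals, the median of all genes was 0.20 and that of the family -0.56, which left the difference from all genes at -0.76 either way. This comparison uses the same day -3 and day 7 libraries as the steps, so it sums them and adds no independent measurement.

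Rps23 had the largest net difference, at 20.8 FPKM at day -3 and 2.91 at day 7 (-2.48). Rpl35, a large subunit protein near the tunnel exit, was at 14.0, 5.56, 3.84 and 2.38 FPKM (-2.15). Rpl12 was at 46.3, 17.8, 26.3 and 11.8 FPKM (-1.89), with the family's partial return at day 2. Rpl38, whose loss in mice alters translation of Hox mRNAs, was at 35.2, 26.6, 12.9 and 9.33 FPKM (-1.81), with no such return. Rpl10a was at 85.2, 25.8, 39.3 and 24.1 FPKM (-1.78). Rpl35, Rpl38 and Rps10 (40.4, 30.2, 19.8 and 12.1 FPKM, net -1.66) each were lower at every successive time.

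Among the most abundant genes, Rplp1 (-1.34 net) and Rps9 (-1.21) were more than 2-fold lower. The rest of the 22 were Rpl36a (-1.74), Rpl28 (-1.50), Rpl11 (-1.37), Rps19bp1 (-1.37), Rpl18 (-1.34), Rps29 (-1.32), Rpl23a (-1.31), Rpl31 (-1.27), Rps27l (-1.26), Rpl22l1 (-1.22), Rps2 (-1.13), Rpl6 (-1.12), Rpl27a (-1.10) and Rps21 (-1.08). Rpl11 stands out in this group because its protein, with Rpl5, binds Mdm2 when ribosome assembly is disturbed. Rpl11 was at 29.97, 30.4, 14.9 and 11.0 FPKM, level until confluence, while Rpl5 was at 24.9, 17.8, 17.5 and 15.7 FPKM (-0.63 net).

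Rpl39, Rps15a and Rplp2 were among the 4 members above 0. Rpl39 was at 25.6, 85.1, 91.1 and 67.7 FPKM, a net difference of 1.37 and the only one past 2-fold. Rps15a was at 48.0, 165.7, 96.0 and 72.4 FPKM (0.58), its peak at confluence. Rplp2 (0.13) ended near where it began.

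The 3 stalk proteins did not share a course. Rplp0, which anchors the stalk, was at 692, 609, 607 and 427 FPKM, lowest at day 7. Rplp1 was already low at day 2, as given above. Rplp2 was at 157.5, 103.6, 116.8 and 172 FPKM and was the only member with its highest value at day 7. Their net differences were -0.70, -1.34 and 0.13. Rplp1 and Rplp2 form dimers on the stalk, and their values differed in sign from day 0 to day 2 (-0.84 and 0.17).

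The paralogs were compared with their parent genes. Rpl22 was at 390, 349, 231 and 225 FPKM, and Rpl22l1 at 28.6, 7.46, 16.5 and 11.7 FPKM. Rpl22 was thus 13.6 times its paralog at day -3, 46.9 times at day 0, 14.0 times at day 2 and 19.3 times at day 7. The pair moved differently, with Rpl22 differing little by day 0 (-0.16) while Rpl22l1 was more than 2-fold lower, and then in opposite directions by day 2. Rpl36a was at 11.9, 3.74, 5.36 and 2.87 FPKM, and its paralog Rpl36al, a retrogene that encodes nearly the same protein, at 29.9, 21.6, 31.2 and 23.3 FPKM. The parent was at 0.397 of the paralog at day -3 and 0.123 at day 7. Rps27l, known as a target of p53, was at 177, 90.2, 80.9 and 73.3 FPKM; its parent Rps27 has no culture value.

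Core genes with 0 or 1 named pseudogene had a higher median level than those with more. Pseudogenes were counted in the RefSeq table by symbol or synonym with the ending -ps or -rs, so those without such a name are not counted. Rps12 has 24 and Rpl31 has 23, and they were at 2.16 and 9.38 FPKM at day -3. Among the 72 core genes, the 30 with 0 or 1 such pseudogene had a median of 106.5 FPKM at day -3, the 19 with 2 to 4 had 36 and the 23 with 5 or more had 28.1. At days 0, 2 and 7 the medians of the class with 0 or 1 were 105.5, 116.9 and 80.1 FPKM. Those of the class with 2 to 4 were 18.5, 26.3 and 15.7 FPKM, and those with 5 or more lay slightly higher, at 18.9, 28.4 and 21.0 FPKM. In the tissue the medians of the 3 classes were 16.9, 2.33 and 3.05 RPKM. The levels thus did not fall steadily with the count. Spearman's rho between the number of pseudogenes and the level was -0.38 at day -3 and -0.39 in the tissue over these 72 genes, which share libraries and are not replicates.

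The classes overlapped widely. Rps29, with 1 named pseudogene, and Rps28, with 0, were at 6.06 and 11.7 FPKM at day -3, while Rps2, with 12, was at 209. The differences over time did not follow the count in this way, since the median from day -3 to day 7 was -0.61, -0.84 and -0.67 in the 3 classes. How reads that match several places were counted is not stated in the sources used here, and its part in these levels was not tested. The levels of single members with many pseudogenes are therefore uncertain. The pseudogene Rpl34-ps1 has its own row in the culture tables, at 41.3, 32.0, 36.1 and 23.1 FPKM, beside 215, 131, 145.5 and 149.6 FPKM for Rpl34. In the tissue Rplp2-ps1 was at 99.0 RPKM and Rplp2 at 87.8.

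**Figure D3:**
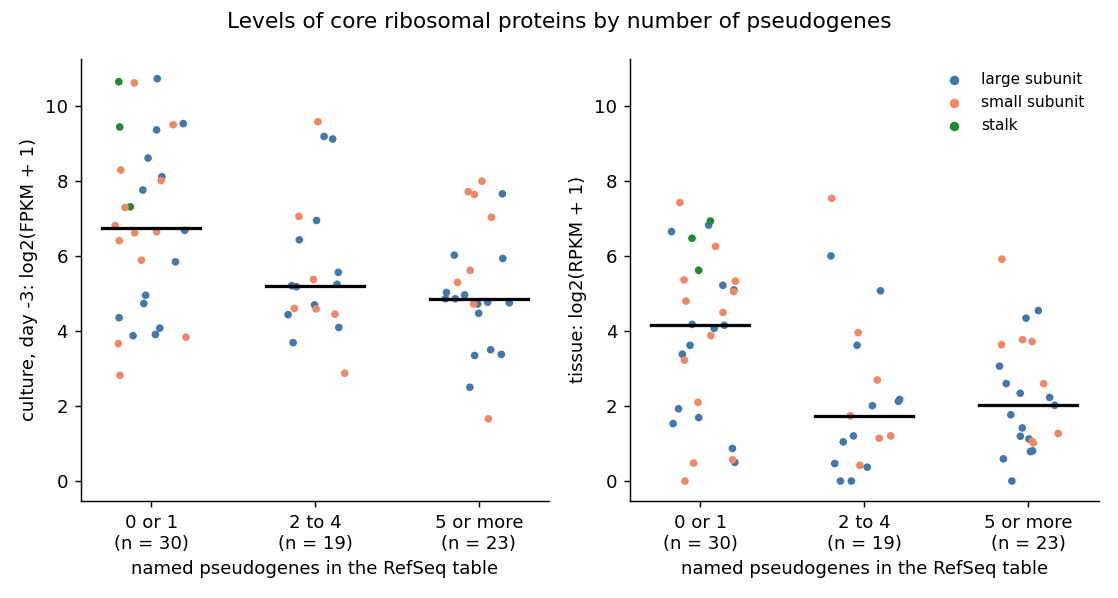
Levels of the 72 core genes as log2(FPKM + 1) at day -3 (left) and log2(RPKM + 1) in tissue (right), grouped by the number of named pseudogenes, with the median of each group as a bar. The group with 0 or 1 pseudogene has the highest median in both panels (106.5 FPKM and 16.9 RPKM), and the groups overlap.

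Brown adipose tissue gave low ranks for many of the same genes. Its values are RPKM, the equivalent unit for single reads, per RefSeq transcript, with the highest transcript taken for a gene. In that library 1 read on a transcript of 1 kb was worth an estimated 0.187 RPKM, and 3 reads 0.561 RPKM, which covers counting error only. All 76 members have a tissue value, with a median of 5.05 RPKM against 5.03 for all genes compared. The highest were Rps15 at 184 RPKM, Rps9 at 170.5, Rplp1 at 121, Rpl4 at 112 and Rpl8 at 99.3. The 5 highest in the tissue were thus the 5 highest maxima of the culture, and Spearman's rho between day 7 and tissue was 0.87 over the 76 genes, against 0.68 over 10467 genes.

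Since FPKM and RPKM came from separate pipelines, the libraries were compared by percentile rank over those 10467 genes. The members' median difference of rank was -10.1 percentage points. At least 10 points lower in the tissue were 38 members, or 50.0%, where 26.7% of all genes were, and 3 were higher, where 27.4% were. That count ranks 4 members listed at 0 in the tissue as low; without all genes listed at 0 there, 34 of 72 members (47.2%) and 26.96% of all genes were lower. A gene in the top 10 percentage points at day 7 cannot be called higher by this rule, and a high rank has more room to fall. The members' median percentile was 68.8 at day 7 and 50.1 in the tissue. Their counts, above all that of members higher, are therefore not on an equal footing with those of all genes. Rps15a stood farthest from its culture rank, at 72.4 FPKM at day 7 and 1.02 RPKM in the tissue (percentiles 91.6 and 14.6). Rps15a has 8 named pseudogenes. The entry Rps15a-ps4 was at 8.31 RPKM in the tissue and has no culture value, and the part of such copies in this difference was not tested. Rps25, at 47.1 FPKM and 3.28 RPKM, went from percentile 85.0 to 36.9.

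Rpl10a and Rpl21 were listed at 0 in the tissue, as were Rpl28 and Rps28. These are genes that every cell uses, so a listed 0 may be a failed estimate, and no fold is given for them. At day 7 they were at 24.1, 16.7, 5.04 and 6.60 FPKM. With these 4, 14 members (18.4%) were below 1 RPKM in the tissue, against 14.4% of all genes compared. The 3 that ranked higher there were Rpl36 (7.04 FPKM and 5.05 RPKM, by 22.2 points), Rps21 (27.02 FPKM and 21.5 RPKM, by 15.8 points) and Rps12 (0.834 FPKM and 1.08 RPKM, by 14.3 points). The paralogs Rps27l and Rpl36al differed by only 3.98 and 3.84 points, beside the family's median of -10.1.

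Several family members have a value only in the tissue: Rpl41 at 103 RPKM, Rps27a at 1.29, Rps13 at 0.642, Rpl27 at 0.255 and Rps27 at 0. A gene with no culture row cannot be taken as low there. The tissue library also held markers of other cells than fat cells. All 4 skeletal muscle markers had values and summed to 1011 RPKM, 2 of 3 red blood cell markers to 93.2 and all 3 endothelial markers to 114, beside 8590 for the 7 adipocyte and 3177 for the 4 brown adipocyte markers. Macrophage and lymphocyte markers summed to 3.21 and 1.32 RPKM. The part of these cells, and of the different processing, in the rank differences was not tested.

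**Figure D4:**
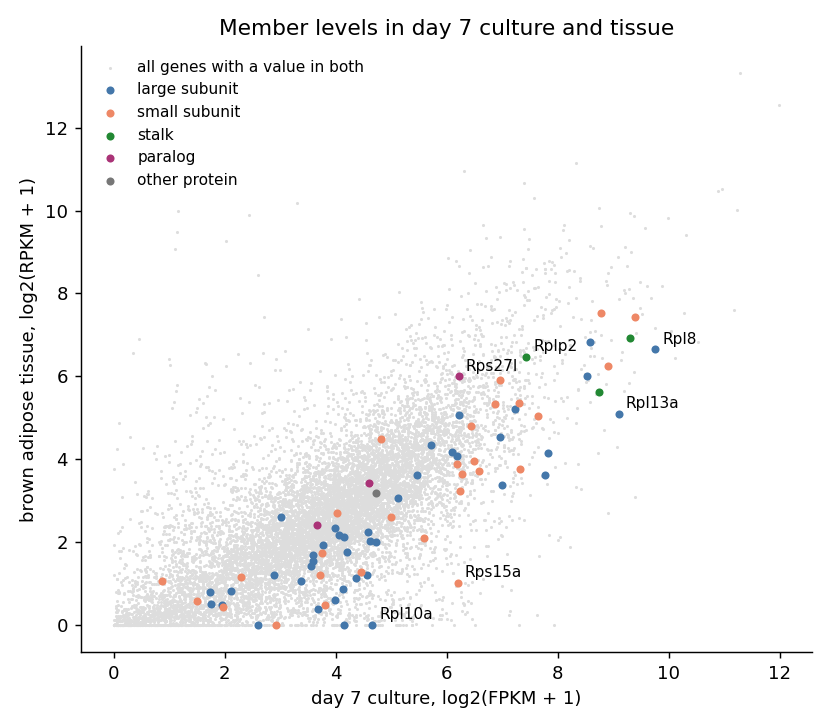
Each gene with a value in both libraries as log2(FPKM + 1) at day 7 (x axis) and log2(RPKM + 1) in brown adipose tissue (y axis), ribosomal protein symbols in colour by kind and all other genes in grey. Members run from Rps12 at the lower left to Rpl8 and Rps9 at the upper right, mostly in the lower part of the grey cloud, with Rps15a and Rpl10a far below it.

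Genes whose products build ribosomes differed in the same directions as the ribosomal protein genes, and the medians of the ribosome biogenesis list were larger in size. Ribosome biogenesis factors cut, modify and fold ribosomal RNA and load the proteins; 50 of the 109 listed have culture values. From day -3 to day 0 all 50 were below 0, with a median of -1.04. At least 2-fold lower were 29 and 0 were higher, where 5.43% and 11.3% of all genes were. From day 0 to day 2, 49 were above 0 with a median of 0.55. At least 2-fold higher were 4, where 6.18% of all genes were. From day 2 to day 7, 48 were below 0 with a median of -0.53. At least 2-fold lower were 7, where 5.14% of all genes were. Over the whole course 25 were lower and 0 higher, where 14.7% and 20.3% of all genes were. The median was -1 against -0.70 for the ribosomal proteins.

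Rrp9, a component of the U3 particle that processes ribosomal RNA, was at 78.7, 12.2, 30.6 and 9.35 FPKM. Mybbp1a, a nucleolar protein, was at 235, 47.9, 101.8 and 40.3 FPKM, and Grwd1, an assembly factor that binds Rpl3, at 46.3, 9.86, 16.7 and 7.81 FPKM. Each of these was higher at day 2 than at day 0 and lowest at day 7, the order of the family's median. Of 18 genes of RNA polymerase I, which transcribes ribosomal RNA, 8 have values. At day 0 all 8 were below 0, with a median of -0.54. At least 2-fold lower were 2, where 5.43% of all genes were. The medians at the later steps were 0.15 and -0.23, and the net median was -0.61. All of these medians were smaller in size than those of the ribosomal proteins. Polr1d was at 81.4, 35.97, 39.1 and 34.7 FPKM, Polr1c at 60.6, 43.8, 37.2 and 27.9, and the initiation factor gene Rrn3 at 44.7, 21.5, 38.8 and 25.2.

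Factors that work with the finished ribosome were also lower on the whole. Of 43 translation initiation factors 34 have values. At day 0, 5 were at least 2-fold lower and 0 higher, where 5.43% and 11.3% of all genes were. Over the whole course 9 were lower and 1 higher, where 14.7% and 20.3% of all genes were, with a median of -0.67. Eif1ax, which helps find the start codon, was at 133, 66.3, 40.6 and 35.9 FPKM, Eif4e2 at 97.7, 53.2, 49.3 and 38.9, and Eif3j at 14.0, 4.98, 5.70 and 5.07. Of 15 elongation and release factors 11 have values. Over the whole course 7 were lower and 0 higher, against the same shares of all genes, with a median of -1.17. Eif5a, which relieves stalled peptide bond formation, was at 542, 168, 281 and 120.4 FPKM. Etf1, the release factor that reads stop codons, was at 120.2, 48.7, 57.9 and 36.3 FPKM, and its partner Gspt1 at 161, 63.9, 66.6 and 49.2.

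The mTOR and Myc regulators did not follow the ribosomal proteins. This list mixes activators with inhibitors, and 25 of 29 have values. At day 0, 0 were at least 2-fold lower and 4 higher, where 5.43% and 11.3% of all genes were. Over the whole course 3 were lower and 6 higher, with a median of 0.45. Of all genes 14.7% and 20.3% were, so these counts lay near those of all genes. The 3 lower were Rps6ka2 (-2.26), Rps6ka4 (-2.02) and Akt1 (-1.67). The 3 with the largest differences were all higher in adipocytes. Mxi1, an antagonist of Myc, was at 3.73, 7.70, 13.6 and 38.6 FPKM, and Mxd4, of the same family, at 8.67, 38.0, 26.1 and 49.6. Pdcd4, an inhibitor of the helicase of translation initiation, was at 8.67, 45.0, 44.7 and 71.0 FPKM. Over these lists the background is that of all genes given above, and none of the snoRNA host genes listed (0 of 10) has a culture value.

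Some ribosomal proteins have symbols that the rule does not take. Gnb2l1, which encodes the scaffold protein Rack1 on the small subunit, was at 1657, 1107, 861 and 666 FPKM. Fau, the fusion gene of Rps30, was at 12.4, 6.74, 4.55 and 5.25 FPKM. Both were lowest after induction.

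The ribosomal proteins of mitochondria took another course. These 74 genes, whose products make the ribosome of the organelle, had median differences of -0.42 from day -3 to day 0, 0.48 from day 0 to day 2 and 0.02 from day 2 to day 7. Their net median was 0.03, beside -0.70 for the cytosolic family, with 1 (1.35%) at least 2-fold lower and 0 higher. Their median level was 32.6 FPKM at day -3 and 32.1 at day 7. The 41 proteasome genes, another large complex of the cytosol, resembled the cytosolic family in part. They had medians of -0.50, -0.01 and -0.29 at the steps and -0.67 net. Over the whole course 13 (31.7%) were lower and 4 (9.76%) higher. Of the cytosolic family 28.9% and 1.32% were, and of all genes 14.7% and 20.3%. A lower net median was therefore not particular to ribosomal proteins. With 1 library per time these differences between families were not tested.

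**Figure D5:**
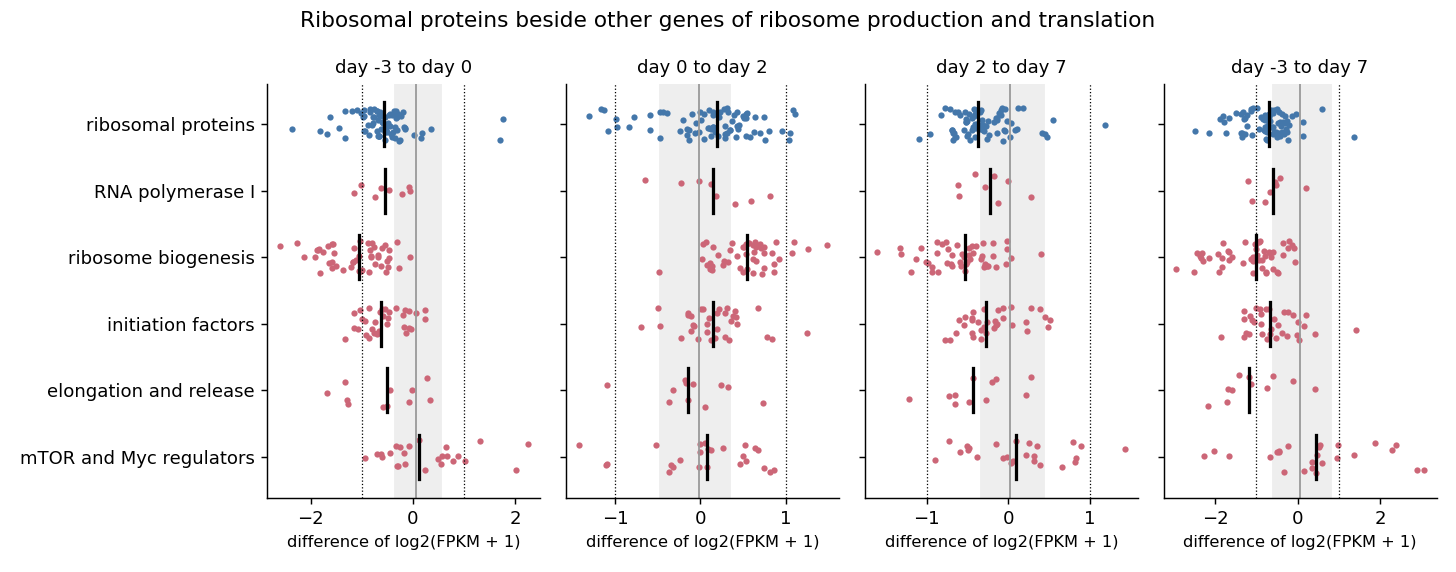
Differences of log2(FPKM + 1) between culture libraries for each gene (points) of the ribosomal protein family and of 5 lists, with list medians as black bars; the grey line and band are the median and the interquartile range of all genes, and dotted lines mark 2-fold. Ribosome biogenesis lies farthest to the left at the first step (median -1.04, ribosomal proteins -0.57). The medians of the mTOR and Myc regulators lie above 0 in each panel, from 0.07 to 0.45, with single genes on both sides.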

How the data were processed

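Gene expression was taken from 5 of the 83 samples: 4 culture libraries and 1 tissue library, each a group of its own by title. The other 78, of chromatin, were not used here. Per the labels' protocols, mRNA was purified from total RNA with Dynabeads. The culture values are FPKM by gene symbol as the authors deposited them, and the tissue values are RPKM that the authors deposited for 29082 RefSeq transcripts. For the culture samples the submitters' processing notes name Cufflinks 1.0.3, TopHat2 2.0.10, SICER and CASAVA 1.8.2, and for the tissue CASAVA 1.8.2, both with mm9. Which tool made which file, the annotation and the treatment of reads with several matches are not given in the sources used here.

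Differences were computed as log2(FPKM + 1) over all genes whose larger value was at least 1, with 2-fold as the threshold; this is a rule of size and not a test. Tissue and day 7 were compared by percentile rank, with 10 percentage points as the threshold. Low values were searched for read steps. In the culture at most 6.02% of low genes shared a ratio, so depth was not recovered; in the tissue all 31 chemosensory receptor genes, with lengths from GRCm38.p6, came out whole within 0.02 of a read. Tissue transcripts were matched by accession, 28436 of them to 1 symbol, in RefSeq tables of GRCm38.p6, which also gave pseudogene names and promoter windows (250 bases before the start and 50 from it on). Pseudogene descriptions and transcript lengths were not used here, so pseudogenes were counted by name.

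The genes named were, for each step and day -3 to day 7, the 5 members with the largest difference each way among those reaching 10 FPKM, every member past 2-fold, the 5 highest and 5 lowest maxima, the 5 largest rank differences each way, the paralogs with their parents, and the 3 nearest the median profile. For each pathway list the 3 with the largest difference from day -3 to day 7 were named. Some genes that this rule takes are not reported here. The members and lists were chosen with earlier results of these data known. Members just short of a threshold, Rpl5, Rps2, Rps10, Rplp0, the pseudogenes, the genes without culture values and the start sites printed were chosen after their values were seen. Alternatives were another pseudocount, threshold, filter or scaling, the core genes alone, other sums, and the tissue ranks without genes listed at 0. Python 3.11.15, pandas 2.3.3, numpy 2.4.6, scipy 1.17.1 and matplotlib 3.10.9 were used.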

Additional observations from a re-analysis of the deposited data

How the results depend on the processing

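Of 100 recomputed values 86 stayed within the tolerance set for their kind and none changed direction. With a threshold of 1.5-fold the members lower numbered 37 from day -3 to day 0, 10 from day 0 to day 2, 15 from day 2 to day 7 and 47 from day -3 to day 7, where 14.6%, 21.0%, 13.8% and 25.4% of all genes were. At that threshold 12 were higher from day 0 to day 2, where 14.6% of all genes were, so neither count at that step stood clear above all genes. With a pseudocount of 5, 1 was lower and 0 were higher from day 0 to day 2, and 0 were lower and 0 higher from day 2 to day 7; with 0.1, 2 were lower at that last step. Rescaled to equal totals, 2 were lower from day 2 to day 7, and the median difference was -0.36 from day -3 to day 0 and -0.56 from day -3 to day 7. Without the 20 highest other genes the members' share at day -3 was 4.38%. Among the 38 members with the higher mean level, an alternative added after seeing the data, the 4 medians were -0.59, 0.15, -0.34 and -0.70. Without genes listed at 0 in the tissue, also added after seeing the data, the median rank difference was -9.15 points. No paired analysis was possible because each group has 1 library, and no replicate could be left out. The unknown depth of the culture limits the low members most, such as Rps12, Rps23 after day -3 and Rpl17.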
